A study of Mus musculus with 2 samples.

Results

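Mir33, Mir185 and Mir455 are 3 of the 2202 miRNA genes counted in the adrenal gland of female mice, and they were chosen by name because miR-33, miR-185 and miR-455 are tied to the handling of cholesterol. Small RNA below 30 nucleotides was sequenced from 2 glands of B6CASTF1/J mice aged 25 days, which are the first-generation cross of C57BL/6J with the wild-derived CAST strain. Both libraries belong to 1 group without a treatment, so the only contrast is that of library 2 with library 1. Per the labels the 2 glands carry different animal numbers and 1 shared donor identifier. A difference between the libraries can come from the animal, the dissection or the making and reading of the library, and these cannot be separated. Whole glands were used, in which fewer cells of a type and less RNA per cell cannot be told apart.

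The adrenal cortex makes steroid hormones from cholesterol. In rodents much of that cholesterol enters through SR-BI, the HDL receptor encoded by Scarb1. The transporters ABCA1 and ABCG1 carry cholesterol out of cells, and SREBP-2, encoded by Srebf2, turns on synthesis and uptake genes when sterols are low. The miRNA miR-33 is made from an intron of Srebf2 and is known for repressing Abca1, so that the transcript of the uptake regulator also carries a repressor of export. miR-455 has been reported to repress Scarb1 in rodent steroidogenic cells, and miR-185 to repress it in human liver cells.

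In mm10 coordinates, Mir33 (ENSMUSG00000065465.1) lies at chr15:82198122-82198190 on the plus strand, in an intron of Srebf2. Mir185 (ENSMUSG00000065464.2) lies at chr16:18327401-18327465 on the minus strand, in an intron of Tango2. Mir455 (ENSMUSG00000070102.1) lies at chr4:63256851-63256932 on the plus strand, in an intron of the fibrillar collagen gene Col27a1. Each gene lies on the strand of its host gene and overlaps no other annotated gene. No stretch of 20 bases of any of them was found in another of the 2202 miRNA genes on either strand, so their reads were not open to division among near-identical miRNA genes. The rest of the genome was not searched.

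The mature sequences below are those of RefSeq on build GRCm38.p6, with the seed (bases 2 to 8), which pairs with the target, in capitals. They are shown because the seed sets which messages a miRNA can pair with. The counts are per gene and sum both arms of a hairpin, so they do not tell which arm the reads came from. The miR-185-5p arm was not analysed here, and the matches to miR-185 given for messages are those of its 3p arm alone.
mmu-miR-33-5p: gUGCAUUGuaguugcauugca
mmu-miR-33-3p: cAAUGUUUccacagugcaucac
mmu-miR-185-3p: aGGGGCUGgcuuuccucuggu
mmu-miR-455-5p: uAUGUGCCuuuggacuacaucg
mmu-miR-455-3p: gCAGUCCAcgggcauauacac
The 5 arms have 5 different seeds. In the RefSeq table of 1738 mature entries, the seed of miR-455-5p was shared with miR-5129-3p, whose gene Mir5129 had 6 reads in library 2 and 8 in library 1. The seed of miR-185-3p was shared with miR-7048-5p, whose gene Mir7048 had 1 read in each library. No mature entry of another gene shared the seed of miR-33-5p, miR-33-3p or miR-455-3p.

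The hairpin of Mir33 shows both arms of the miRNA in capitals within the 69 bases of the precursor.
Mir33 hairpin: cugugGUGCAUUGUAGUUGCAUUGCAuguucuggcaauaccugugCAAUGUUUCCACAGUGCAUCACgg

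To show what these seeds can pair with, the 3′ UTRs of 6 cholesterol genes were searched for the 7 bases complementary to each seed, on the sense strand of the GENCODE M21 transcript with the longest 3′ UTR. The letters searched were CAATGCA for miR-33-5p, AAACATT for miR-33-3p, CAGCCCC for miR-185-3p, GGCACAT for miR-455-5p and TGGACTG for miR-455-3p. Abca1, the exporter that loads HDL, held 3 matches to miR-33-5p within its first 156 UTR bases, and the exporter Abcg1 held 2. At least 1 such match was present in 15.4% of the 2185 3′ UTRs that had 0.8 to 1.2 times the length of that of Abca1. For Abcg1 the share was 17.7% of 1778. In the following sequences, given as DNA with their mm10 positions, the match is in capitals.
Abca1, chr4:53033798-53033819, minus strand: ctgacactattCAATGCAatgc
Abca1, chr4:53033793-53033814, minus strand: actattcaatgCAATGCActtc
Abca1, chr4:53033783-53033804, minus strand: gcaatgcacttCAATGCAacga
Abcg1, chr17:31114991-31115012, plus strand: ctaacgcaacgCAATGCAacgc
Abcg1, chr17:31115001-31115022, plus strand: gcaatgcaacgCAATGCAgaca
The 3 windows of Abca1 overlap each other, and its first and second match, which start at UTR bases 135 and 140, share their end bases. The 2 windows of Abcg1 overlap as well, while their matches do not.

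Scarb1, the HDL receptor gene, held 1 match to miR-455-5p and 1 to miR-185-3p in its 779 UTR bases, and none to either arm of miR-33. The 5p arm of miR-185 was not searched, and the 3p match is not tied here to the reported repression by miR-185. Of 2397 3′ UTRs of like length, 4.26% held a match to miR-455-5p and 10.3% one to miR-185-3p.
Scarb1 with miR-455-5p, chr5:125277704-125277725, minus strand: tccgcacgcacGGCACATggat
Scarb1 with miR-185-3p, chr5:125277568-125277589, minus strand: ctagctgctgtCAGCCCCtcct
Srebf2, the host gene of Mir33, held 1 match to miR-33-3p, as did 19.8% of UTRs of like length. Star, which moves cholesterol into mitochondria, and Cyp11a1, which cleaves its side chain, held no match to any of the 5 arms, and the seed of miR-455-3p had no match in any of the 6 UTRs. A match describes letters only, and the messages of these genes were not measured in these libraries.

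**Figure D1:**
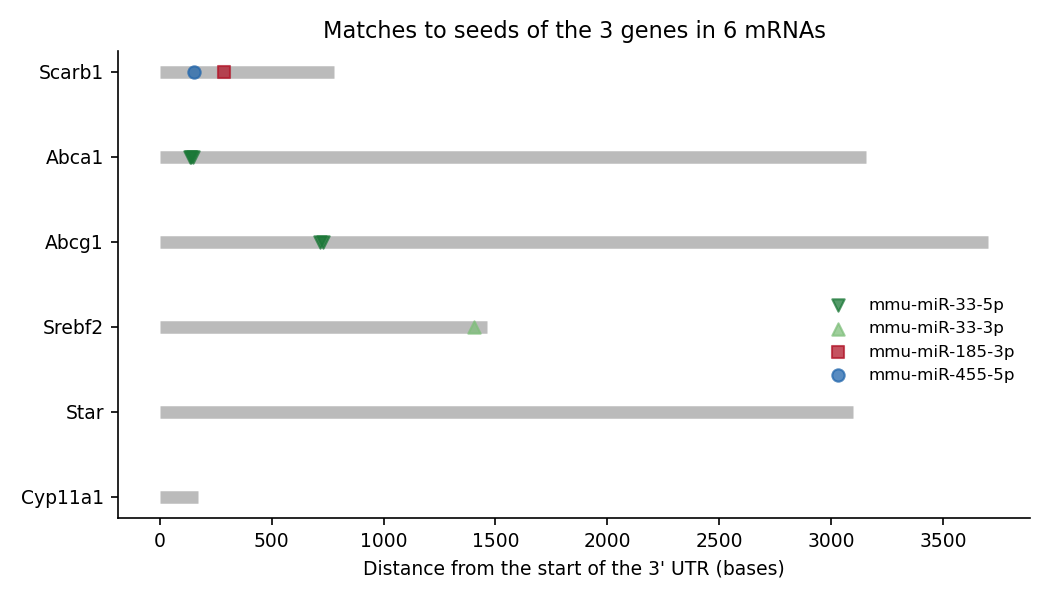
Places of the matches along the 3′ UTR of 6 cholesterol genes, in bases from the start of the UTR. Grey bars are the UTRs to scale and symbols are matches to an arm's seed. Abca1 and Abcg1 carry the miR-33-5p matches close together, and Scarb1 carries those of miR-185-3p and miR-455-5p. The miR-185-5p arm was not searched.

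Library 2 held 3912280 reads on the strand of miRNA genes and library 1 held 2244073. Levels are normalised read counts in CPM, scaled to this sum in each library. Intervals in brackets cover counting error only, and reads of the same PCR product are not independent molecules. Reads from the CAST chromosomes may be lost in both libraries where they differ from the reference. The 8 adrenal and neuroendocrine marker genes all reached 10 reads in both libraries, the limit for detection. They held 4.34% of the miRNA reads in library 2 and 4.23% in library 1. Mir375 made up most of that sum, with 36561 CPM in library 2 and 37574 CPM in library 1. Mir7b, Mir137, Mir7-1, Mir7-2 and Mir153 had a higher CPM in library 2, and Mir202 and Mir483 a lower one. Neither Mir202 nor Mir483 passed the exact binomial test used below. The near-equal sum thus does not mean that each marker was level. Of 16 markers of other cell types 9 were detected. Together the 16 held 16.3% in library 2 and 8.79% in library 1. Mir126a made up most of this sum, with 121007 CPM in library 2 and 53763 CPM in library 1. Mir143 came next, with 40553 CPM in library 2 and 27293 CPM in library 1. Of the other detected genes, Mir142 had a higher CPM in library 2 and Mir122, Mir150, Mir223 and Mir200b a lower one. Mir145a and Mir200c had a slightly lower CPM there and did not pass that test. The striated muscle genes Mir133a-1 and Mir133a-2 were at 0 in both libraries. Each holds 20 bases that recur in a further miRNA gene and reads that fit both are in neither count, so this 0 sets no limit on their level. The muscle gene Mir206 holds no such bases. It had 5 reads in library 2 and 9 in library 1, below the limit for detection.

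Mir33, which is processed from the Srebf2 transcript, was low and level. It had 89 reads in library 2 and 51 in library 1. These were 22.7 CPM in library 2 (95% Wilson interval 18.5 to 28.0) and 22.7 CPM in library 1 (17.3 to 29.9). It stood at place 256 of all miRNA genes in library 2 and at place 258 in library 1. The mean of 22.7 ± 0.0158 CPM (SD, n = 2) has a spread far below the counting error of either value, so the closeness of the libraries is not a measure of precision.

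Mir185, from the Tango2 intron, was the member whose level parted the libraries. It had 4927 reads in library 2 and 214 in library 1. These were 1259 CPM in library 2 (95% Wilson interval 1225 to 1295) and 95.4 CPM in library 1 (83.4 to 109). Its place among all miRNA genes was 66 in library 2 and 188 in library 1. The mean was 677 ± 823 CPM (SD, n = 2), an SD above the mean itself, so no single level describes this gene in these glands.

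Mir455, from the Col27a1 intron, went the other way. It had 3092 reads in library 2 and 3459 in library 1, although library 2 was the deeper one. These were 790 CPM in library 2 (95% Wilson interval 763 to 819) and 1541 CPM in library 1 (1491 to 1594), with a mean of 1166 ± 531 CPM (SD, n = 2). Its place was 90 in library 2 and 62 in library 1. By the mean of both libraries Mir455 was the highest of the 3 genes, at place 73, followed by Mir185 at 97 and Mir33 at 259. All 3 genes had no read on the opposite strand in either library.

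**Figure D2:**
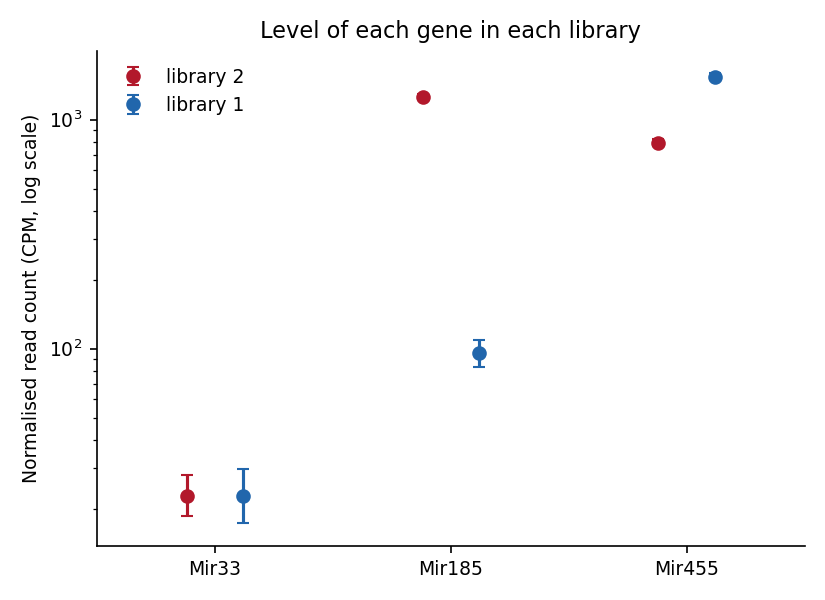
Normalised read count (CPM, log axis) of Mir33, Mir185 and Mir455 in library 2 and library 1. Points are the libraries and bars are 95% Wilson intervals for counting error. Mir33 is level at 22.7 CPM, Mir185 is higher in library 2 and Mir455 is lower in library 2.

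The order of the genes within a library does not depend on any scaling between libraries. In library 2 Mir185 had 1.59 times the reads of Mir455 (95% exact binomial interval 1.52 to 1.67), whereas in library 1 it had 0.0619 times (0.0536 to 0.0710). Mir185 thus led the 3 genes in library 2, and Mir455 led them in library 1. The ratio of Mir185 to Mir455 in library 2 was 25.8 times that in library 1 (95% interval 22.3 to 29.9, Fisher's exact test).

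Mir33 was the lowest of the 3 genes in both libraries. Mir185 had 55.4 times its reads in library 2 (95% exact interval 44.9 to 69.1) and 4.20 times in library 1 (3.08 to 5.81). Mir455 had 34.7 times the reads of Mir33 in library 2 (28.1 to 43.4) and 67.8 times in library 1 (51.5 to 91.3). Of Mir33 and Mir455, the odds were 1.95-fold higher in library 2 (95% interval 1.36 to 2.82, Fisher's exact test on the reads of both libraries, two-sided, adjusted p = 0.00015 over 3 pairs). Of Mir33 and Mir185, they were 0.0759 times those of library 1 (0.0517 to 0.112, adjusted p = 7.89e-32 in the same exact test). The p for Mir185 and Mir455 was below the smallest number the software holds. These p-values take the reads as independent and cover counting error alone. The general spread between the libraries, given below, is wider than that, and the 2 libraries belong to 1 group.

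**Figure D3:**
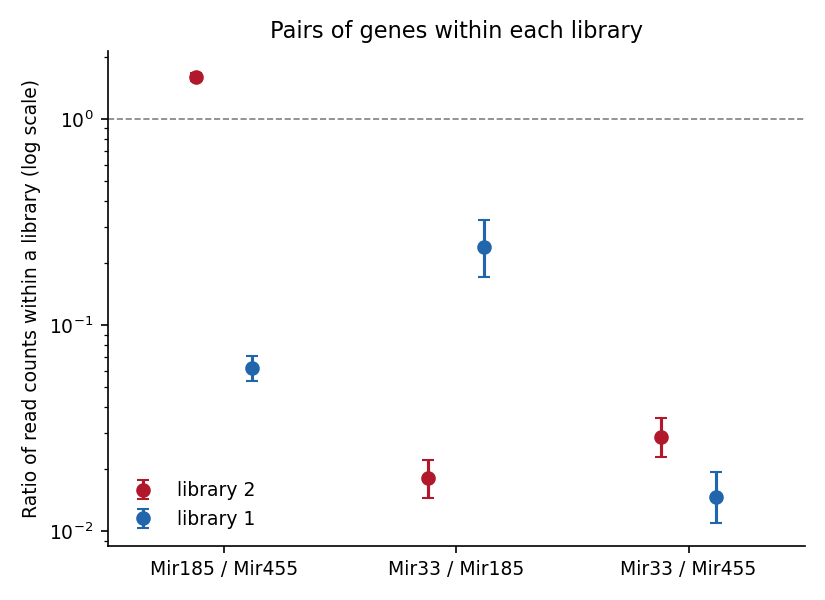
Ratio of the read counts of 2 genes within the same library (log axis), for library 2 and library 1, with 95% exact intervals for counting error. The dashed line marks equal counts. The ratio of Mir185 to Mir455 lies above the line in library 2 at 1.59 and below it in library 1 at 0.0619.

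Across the table, genes whose reads summed to at least 10 were compared by the exact binomial test (two-sided, TMM scaling, Benjamini-Hochberg adjustment). This test compares these 2 libraries and not conditions. It called 58.4% of 411 genes at an adjusted p of 0.05, 29.4% as higher in library 2 and 29% as higher in library 1, so that passing it is common here. Mir185 (higher in library 2) and Mir455 (higher in library 1) passed and Mir33 did not, 2 of 3. The same 2 members passed with a 1.5-fold difference required as well, as did 31.4% of the genes. In that count, 15.1% of the genes were called higher in library 2 and 16.3% higher in library 1. That split was 62 genes higher in library 2 of 129, or 48.1%, and with no filter on low counts it was 85 of 128, or 66.4%. Without the filter the ratios of the detected genes shifted by a median of 0.17 on the log2 scale.

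Mir185 was 14.0-fold higher in library 2 (log2 ratio 3.81, 95% counting interval 3.61 to 4.00). Among the 337 detected genes only Mir451a and Mir26a-2 had a larger log2 ratio in either direction. Mir455 had a log2 ratio of -0.88 (95% interval -0.95 to -0.81, adjusted p = 7.32e-132 in the exact binomial test), which is 1.84-fold lower in library 2. Counting Mir455 itself, 68 of the 337 detected genes had a log2 ratio at least as large in either direction. Mir33 had a log2 ratio of 0.08 (95% interval -0.41 to 0.58, adjusted p = 0.868 in the exact binomial test). That interval, from 0.751-fold to 1.49-fold, holds both a lower and a higher level in library 2, and the sign of the ratio turned with scaling by library size alone.

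The general spread between the libraries is wider than counting error. With edgeR's exact test and the common dispersion of both libraries (biological coefficient of variation 0.387), 1.22% of the 411 genes passed, which are 5 genes. Mir185 was 1 of them (adjusted p = 0.00331 in edgeR's exact test), and Mir455 and Mir33 were not (adjusted p = 1 for each). The other called genes were Mir451a, Mir144, Mir122 and Mir26a-2, of which Mir26a-2 has an uncertain count because Mir26a-1 gives the same miR-26a-5p. The dispersion comes from the same 2 libraries, so the difference tested is also part of the spread.

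**Figure D4:**
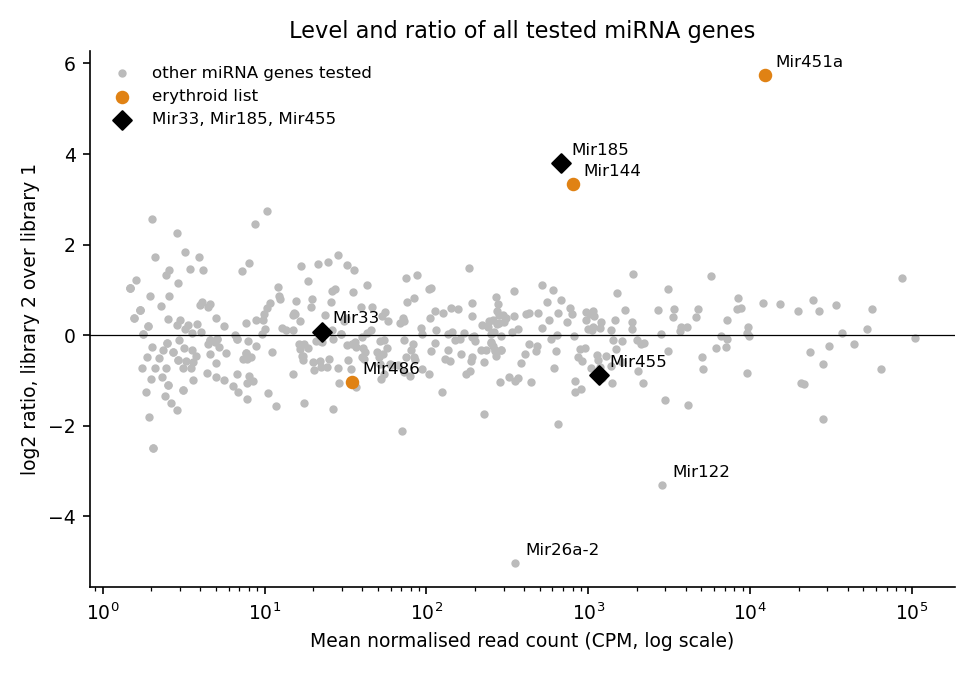
Log2 ratio of library 2 over library 1 against the mean normalised read count (CPM, log axis) of the 411 tested miRNA genes. Each point is a gene. Mir185 lies beside Mir144, below Mir451a and apart from the bulk of genes, Mir455 at -0.88 and Mir33 at 0.08 lie within it.

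The genes with ratios most like those of the members were then taken from all detected genes, over 2 libraries only. The nearest to Mir185 was Mir144, with 1451 CPM in library 2 and 152 CPM in library 1 (log2 ratio 3.33). Next came Mir451a, with 24242 CPM in library 2 and 480 CPM in library 1 (log2 ratio 5.74), and Mir153, with 43.7 CPM in library 2 and 13.4 CPM in library 1 (log2 ratio 1.78). Mir451a and Mir144 share a primary transcript and are known for red blood cell maturation, and Mir153 lies in the neuroendocrine gene Ptprn2. For Mir33 the nearest were Mir29a, Mir449a and Mir300, with log2 ratios of 0.09, 0.07 and 0.06. For Mir455 they were Mir877, Mir3058 and Mir1306, with log2 ratios of -0.86, -0.86 and -0.90.

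Of the 3 erythroid markers, 2 were called higher in library 2, as Mir185 was. Among all 411 tested genes the exact binomial test called 29.4% higher there, and 15.1% with a 1.5-fold difference. These were Mir144 and Mir451a, which share a primary transcript. Mir486 was lower there, with 86 reads in library 2 and 107 in library 1 (log2 ratio -1.03). Their summed level was 2.57% of the miRNA reads in library 2 and 0.0680% in library 1, and none was at 0. Mir486 and Mir451a each hold 20 bases that also occur in a second miRNA gene, on the same or the opposite strand. Whether this takes reads from their counts was not examined. The part of red blood cells in the Mir185 difference was not tested.

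Within a library, Mir185 had 0.868 times the reads of Mir144 in library 2 (95% exact interval 0.836 to 0.902) and 0.626 times in library 1 (0.525 to 0.744). Against Mir451a it had 0.0519 times the reads in library 2 (0.0505 to 0.0535) and 0.199 times in library 1 (0.171 to 0.230). Against Mir486 it had 57.3 times the reads in library 2 (46.3 to 71.8) and 2 times in library 1 (1.58 to 2.55). For each of these pairs the intervals of the libraries do not overlap. The ratio to Mir144 changed least, and Mir451a itself changed more between the libraries than Mir185 or Mir144. The hepatocyte miRNA Mir122 also parted the libraries, in the other direction, with 491 CPM in library 2 and 5185 CPM in library 1.

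Among the miRNA genes annotated near Mir185, Mir1306 was the one with enough reads for a ratio, and its ratio had the opposite sign. Mir1306, which lies 43.1 kb away on the same strand, had 209 reads in library 2 and 237 in library 1. It lies within the span of Dgcr8, which encodes a subunit of the complex that cuts primary miRNA transcripts. Its level was 53.4 CPM in library 2 and 106 CPM in library 1 (log2 ratio -0.90, 95% interval -1.16 to -0.63, adjusted p = 2.04e-10 in the exact binomial test). The other miRNA genes within 100 kb, which lie nearer, were Gm24572, with 2 reads in library 2 and 3 in library 1, and Gm26219, with none in either, and they were not tested. No other miRNA gene is annotated within 100 kb of Mir33 or Mir455.

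The members were set beside other miRNAs reported to act on the same cholesterol genes, in any species or cell type. In the list of 7 genes reported for Scarb1, all were detected and all passed the exact binomial test, 2 higher in library 2 and 5 lower. That test called 58.4% of all 411 genes. Of the 306 genes with 50 or more summed reads, as all 7 have, it called 234 when only those were tested. Their median log2 ratio was -0.64, against -0.07 over all genes tested. In edgeR's exact test 1 of the 7 passed, which is Mir185. Mir125a, reported to repress Scarb1 in rodent steroidogenic cells as miR-455 is, was the most abundant, with 2038 CPM in library 2 and 6241 CPM in library 1 (log2 ratio -1.53). Mir455 was the next in level and Mir185 the third. Mir24-2, Mir24-1 and Mir223, a neutrophil miRNA, were lower in library 2 as well, with log2 ratios of -0.57, -0.64 and -2.12. Mir96, of the miR-183 cluster known from sensory cells, had 90 reads in library 2 and 35 in library 1 (log2 ratio 0.63), and it and Mir185 were the 2 that were higher in library 2.

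Those 7 genes summed to 0.433% of the miRNA reads in library 2 and 0.831% in library 1. Mir185 made up 0.126% of all miRNA reads in library 2 and 0.00954% in library 1. Mir455 made up 0.0790% in library 2 and 0.154% in library 1. Mir24-1 and Mir24-2 share a mature sequence, so reads that fit both are in neither count.

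In the list of 20 genes reported for Abca1, to which Mir33 belongs, 15 were detected. Of 17 tested, 5 passed as higher in library 2 and 6 as lower, with a median log2 ratio of -0.07, the same as over all genes tested. Those 11 calls stand beside the 58.4% called among all genes, and edgeR's exact test called Mir144 and Mir26a-2. Mir33 stood near the foot of this list, above Mir26a-1 among the detected genes. Mir10b of the Hox clusters led it with 22902 CPM in library 2 and 16675 CPM in library 1 (log2 ratio 0.54). Mir27b (log2 ratio -0.74), Mir20a (log2 ratio 0.92) and Mir106b (log2 ratio 0.33) came next. Mir145a, of smooth muscle, and Mir148a had log2 ratios of -0.02 and -0.07 and did not pass.

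Over both lists without the members, 16 of 21 tested genes passed, 6 higher in library 2 and 10 lower. This stands beside 58.4% of all genes, and 234 of 306 when only genes with 50 or more summed reads were tested. Their median log2 ratio was -0.40, against -0.07 over all genes, and 2 of them, Mir144 and Mir26a-2, passed edgeR's exact test. Of the 27 listed genes, 13 hold 20 bases that recur in a further miRNA gene, and the 3 members are not among those.

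**Figure D5:**
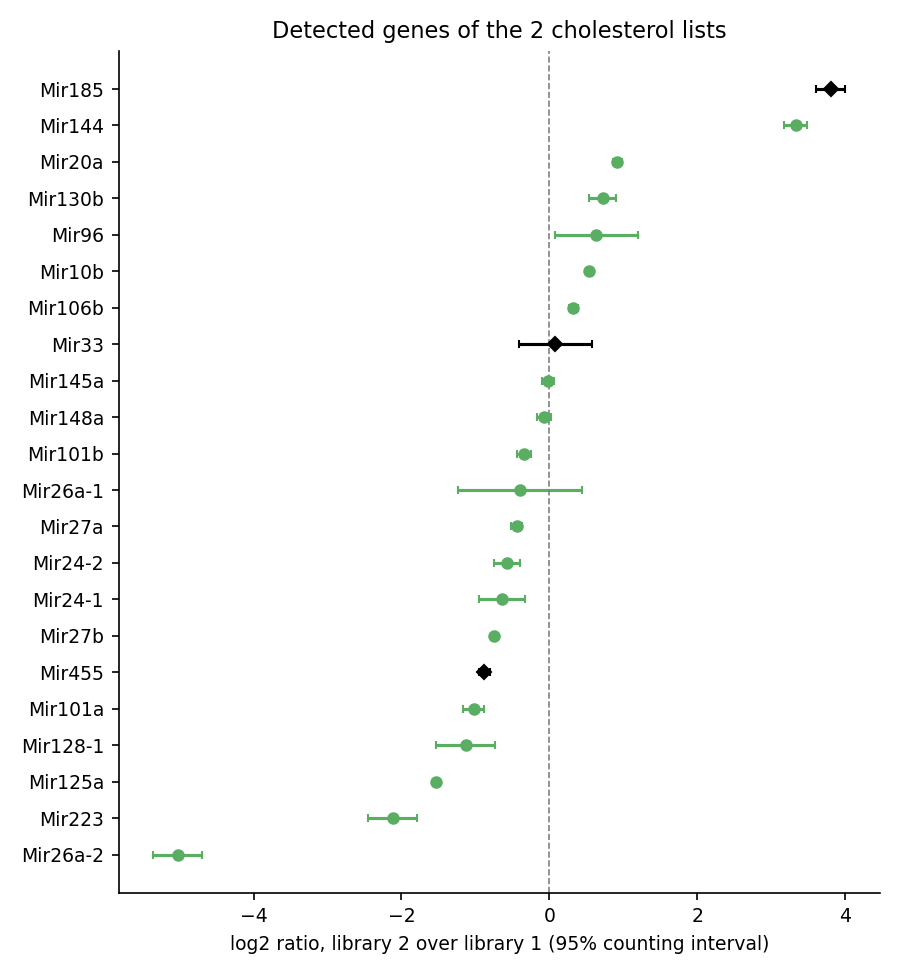
Log2 ratio of library 2 over library 1 of the 22 detected genes reported for Scarb1 or Abca1, with 95% counting intervals. Black diamonds are Mir33, Mir185 and Mir455, and green points are the other genes. Mir185 is at the high end beside Mir144, and Mir26a-2 and Mir223 are at the low end.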

How the data were processed

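The authors deposited 1 table of raw read counts per miRNA gene for each library, mapped to mm10 and, per the text deposited with each table, annotated with GENCODE M21. No aligner or counter is named in the sources used here. Of the 2 stranded count columns, the one with the larger total was taken as the strand of the gene. All 2202 identifiers were found in GENCODE M21. Rows without a gene entered no library size and no test. Of all reads, library 2 had 27.8% unmapped, 27.5% mapped to several places and 9.53% outside miRNA genes. Library 1 had 33.8%, 28.4% and 9.57%. Multiply mapped reads enter no gene's count.

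Each log2 ratio sets library 2 over library 1 after TMM scaling by edgeR, with 0.5 added to every count. With 1 group a quasi-likelihood test has no coefficient, so the exact binomial test was used. Its p-value sets the difference between these 2 libraries against counting error alone. The p-value of edgeR's exact test takes in the spread pooled over all tested genes as well. Alternatives were other scalings, the unstranded column, other filters, edgeR's exact test and leaving out a library. Named genes are the members, detected genes of the fixed lists, the 3 nearest by ratio, neighbours within 100 kb and genes sharing a seed. The muscle genes of the lists are named as well. The members, lists and tests were chosen with earlier results of these data known, and the 6 UTR genes after the files were seen. Some items of the lists are not reported here. R 4.3.3, edgeR 4.0.16, DESeq2 1.42.0 and Python 3.11.15 were used.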

Additional observations from a re-analysis of the deposited data

How the results depend on the processing

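Apart from leaving out a library, 41 of 47 alternative values stayed within their limit. The limit was the direction and side of the threshold for ratios, 1.5 times for counts of genes and the SD for levels, which is wide for Mir185 and very narrow for Mir33. The log2 ratio of Mir33 was -0.0046 with scaling by library size alone. With edgeR's exact test Mir455 no longer passed (adjusted p = 1, and from 1.67e-158 to 3.32e-87 in the other alternatives). The edgeR test adds the spread between the 2 libraries, pooled over all genes. Its log2 ratio of -0.88 comes from the same formula as the main one, so only the p-value could change. That test called 5 genes in place of 240, and 5 in place of 129 with a 1.5-fold limit. The log2 ratio of Mir185 ran from 3.72 to 3.97 and passed in every alternative tried. The level of Mir33 was 27.6 CPM in the unstranded column, which leaves out reads ambiguous between genes, and 23.0 CPM without Mir451a and Mir144 in the library sizes. With only 1 library left, where a mean of 2 cannot move by more than the SD, the level of Mir33 ran from 22.7 to 22.7 CPM, that of Mir185 from 95.4 to 1259 CPM and that of Mir455 from 790 to 1541 CPM. A ratio needs both libraries, so none was left out there. No paired analysis was possible because both libraries belong to the same group.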
